A study of Homo sapiens with 7 samples.

Results

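The miR-15 and miR-16 family was followed in HepG2 cells, a human hepatocellular carcinoma line, before and after siRNA against TEAD1. TEAD1 is a transcription factor through which the Hippo pathway acts on DNA. The members were taken by name and are 7 of the 2652 mature miRNAs listed for each library: hsa-miR-15a-5p, hsa-miR-15b-5p, hsa-miR-15b-3p, hsa-miR-16-5p, hsa-miR-16-2-3p, hsa-miR-195-5p and hsa-miR-497-5p. Small RNA was sequenced from the line, labelled wild type, in 7 libraries: 1 untreated (0 h), and 1 for each of siRNA 1 and siRNA 2 at 24, 36 and 48 h. Each time point therefore had 2 libraries, which differed in the siRNA. Whether these came from independent cultures is not stated, so the p-values measure the spread between libraries, which may be technical. No library received a control siRNA, and effects of transfection, of time and of TEAD1 loss cannot be told apart. The TEAD1 mRNA is not measured by small RNA-seq, so the knockdown itself could not be checked.

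A mature miRNA finds its target mRNAs mainly by pairing of its seed, the bases near its 5′ end, and represses them. The miR-15 and miR-16 miRNAs share a seed and are known as brakes on the cell cycle and on survival, with cyclins D1, D3 and E1, CDK6, WEE1 and BCL2 among their described targets. They come from paired hairpins, the first of which is lost in many chronic lymphocytic leukaemias. In a hairpin, one arm is usually kept in the Argonaute complex as the guide strand, and the other arm, the passenger strand, is mostly degraded.

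The mature sequences show which members share a target-recognition seed and which are passenger arms. They are given 5′ to 3′ with the seed, bases 2 to 8, in capitals, and are the same in the deposited tables and in RefSeq (GRCh38.p14).
hsa-miR-15a-5p: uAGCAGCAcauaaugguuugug
hsa-miR-15b-5p: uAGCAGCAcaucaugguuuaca
hsa-miR-16-5p: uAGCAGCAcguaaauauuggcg
hsa-miR-195-5p: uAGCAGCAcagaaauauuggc
hsa-miR-497-5p: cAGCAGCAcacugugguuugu
hsa-miR-15b-3p: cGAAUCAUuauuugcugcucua
hsa-miR-16-2-3p: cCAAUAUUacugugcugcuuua
The 5 members named 5p carry the same seed, which 7 of the 2652 miRNAs have. The passenger arms miR-15b-3p and miR-16-2-3p each carry another seed. Compared base by base from the 5′ end, miR-15a-5p and miR-15b-5p differ at 4 of 22 bases. miR-16-5p and miR-195-5p differ at 2 of 21, and miR-16-5p and miR-15a-5p at 6 of 22.

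The members come from 3 clusters of 2 hairpins. On chromosome 13, MIR15A (chr13:50049119-50049201, minus strand) and MIR16-1 (chr13:50048973-50049061, minus strand) lie 57 bases apart in DLEU2, a long noncoding RNA gene. MIR16-1 is intronic in 6 of 6 DLEU2 transcripts that span it, and MIR15A overlaps an exon in 2 of 6. On chromosome 3, MIR15B (chr3:160404588-160404685, plus strand) and MIR16-2 (chr3:160404745-160404825, plus strand) lie 59 bases apart. Both are intronic in 13 of 13 transcripts of SMC4, which encodes a condensin subunit. On chromosome 17, MIR195 (chr17:7017615-7017701, minus strand) and MIR497 (chr17:7017911-7018022, minus strand) lie 209 bases apart in the noncoding gene MIR497HG. All positions are RefSeq's on GRCh38.p14. The build used for the deposited counts is not given in the sources used here. The chromosome 3 hairpins are shown because both of their arms are members, with the 2 mature arms of each in capitals.
MIR15B: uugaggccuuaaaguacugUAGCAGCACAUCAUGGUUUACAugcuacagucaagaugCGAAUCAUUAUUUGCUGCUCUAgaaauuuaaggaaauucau
MIR16-2: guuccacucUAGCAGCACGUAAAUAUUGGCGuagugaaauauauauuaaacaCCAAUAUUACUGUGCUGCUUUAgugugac
The mature miR-16-5p is the same from MIR16-1 and MIR16-2, so its reads cannot be assigned to a chromosome. Only the 3p arms of those hairpins tell the clusters apart. The 6-base core that TEAD factors bind (GGAATG, or CATTCC on the other strand) was searched in RefSeq windows of 300 bases around the start sites of the 3 host genes. It occurred in 3 of 5 such windows, at least 1 for each host, and in 14.03% of all 35116 windows of that length. DLEU2 and SMC4 each also had a window without it, and binding of TEAD1 to these windows was not tested.

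Between 1920832 and 6171851 reads per library were miRNA reads, out of 13134601 to 15591345. That share was 43.1% in the untreated library and 13.4% to 26.5% after siRNA. In a principal component analysis of log2 CPM, the first component (63.1% of the variance) put the library labelled siRNA 1, 36 h at -9.49, beside the untreated and 24 h libraries (-9.36 to -7.86). The library labelled siRNA 2, 36 h lay at 14.0, beside the 48 h libraries (10.6 and 10.8). The log2 difference between the 2 libraries of a time had an SD over miRNAs of 1.22 at 36 h, 0.57 at 24 h and 0.50 at 48 h. Tests were therefore also run without the 36 h pair. As that pair was picked for its spread in these same data, p-values without it tend to be too small. Of the 5 hepatocyte markers, miR-148a-3p was at 18426 CPM in untreated cells and 13928 to 25536 CPM after siRNA, miR-192-5p at 2480 and 1710 to 3066 CPM, and miR-194-5p at 73.1 and 68.6 to 136 CPM. miR-122-5p, the classic hepatocyte miRNA, was at 45.5 CPM in untreated cells, at 32.2 and 47.6 CPM in the siRNA 1 libraries of 24 h and 36 h, and at 3.76 to 6.60 CPM in the other 4 treated libraries. It was called lower at 48 h without the 36 h pair, at a log2 fold change of -3.43 ± 0.49 (edgeR adjusted p = 1.78e-10), and not with all libraries (-3.47 ± 1.29, adjusted p = 0.367). miR-885-5p had 0 reads in all 7 libraries.

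miR-16-5p, the main guide strand of the family, was the most read member in each of the 7 libraries, with 56.1% to 76.6% of all member reads. Its level, in counts per 1000000 miRNA reads after TMM scaling (CPM), was 691 in the untreated library. It was 967 CPM with siRNA 1 and 1699 CPM with siRNA 2 at 24 h, 1381 and 648 CPM at 36 h, and 1077 and 976 CPM at 48 h. Of the 6 treated libraries, 5 lay above untreated and the siRNA 2 library of 36 h lay below it. The exact 95% binomial (Clopper-Pearson) interval of the untreated value, 669 to 714 CPM, covers counting error only and held none of the 6 treated values. The treated mean was 1125 ± 367 CPM (SD, n = 6). The 2 siRNAs differed 1.76-fold at 24 h, with siRNA 2 higher, and 2.13-fold at 36 h, with siRNA 1 higher.

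miR-15b-5p, the guide strand of MIR15B, was second in every library. It was at 251 CPM in untreated cells, at 315 and 288 CPM at 24 h (siRNA 1, then siRNA 2), at 450 and 227 CPM at 36 h, then 226 and 330 CPM at 48 h. In 4 of the 6 treated libraries it was above untreated, and the treated mean was 306 ± 82.7 CPM (SD, n = 6). Its highest library was siRNA 1 at 36 h, and the untreated value lay within the treated range.

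The passenger arm miR-15b-3p was at 138 CPM in untreated cells, at 146 and 114 CPM at 24 h, at 115 and 117 CPM at 36 h, then 134 and 161 CPM at 48 h. Its treated mean was 131 ± 19.1 CPM (SD, n = 6), with 2 of 6 libraries above untreated. The other chromosome 3 passenger arm, miR-16-2-3p, was at 127 CPM in untreated cells, at 163 and 90.8 CPM at 24 h, at 115 and 145 CPM at 36 h, then 132 and 128 CPM at 48 h. Its treated mean was 129 ± 24.7 CPM (SD, n = 6), with 4 of 6 above untreated. These 2 arms were neighbours in the order of levels, and their difference was not tested. miR-16-2-3p was the higher in 2 of 7 libraries, and both arms had 228 reads in the siRNA 1 library of 36 h. They varied least of the 5 better-read members.

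miR-15a-5p, the guide strand of MIR15A on chromosome 13, was read about an order of magnitude less than miR-15b-5p. Its level was 22.9 CPM in untreated cells, 32.5 and 25.5 CPM at 24 h, 31.9 and 12.0 CPM at 36 h and 15.7 and 20.5 CPM at 48 h. The treated mean was 23.0 ± 8.45 CPM (SD, n = 6), with 3 of 6 libraries above untreated. Both 48 h libraries were below both 24 h libraries, as they were for 33% of the 458 miRNAs tested, while 28.2% lay the other way round. The counts were 29 to 123 reads a library, and the untreated interval was 19.1 to 27.4 CPM. It held the second 24 h value and the siRNA 2 value of 48 h.

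The chromosome 17 members were close to the limit of detection. miR-195-5p had 6 reads in the untreated library, 5 and 5 at 24 h, 1 and 5 at 36 h and 3 and 8 at 48 h. miR-497-5p had 2 reads in untreated cells, 4 and 0 at 24 h, 1 and 0 at 36 h and 3 and 2 at 48 h. A count of 0 still allows up to 3 reads, which equal 0.560 to 1.52 CPM by library. Both miRNAs fell under the mean of 10 reads needed for testing, so 5 of the 7 members entered the tests. The differences between libraries in these 2 miRNAs were not detectable at this depth. The reads of the other arm, miR-195-3p, outnumbered those of miR-195-5p in 6 of 7 libraries, and miR-497-3p had none.

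**Figure D1:**
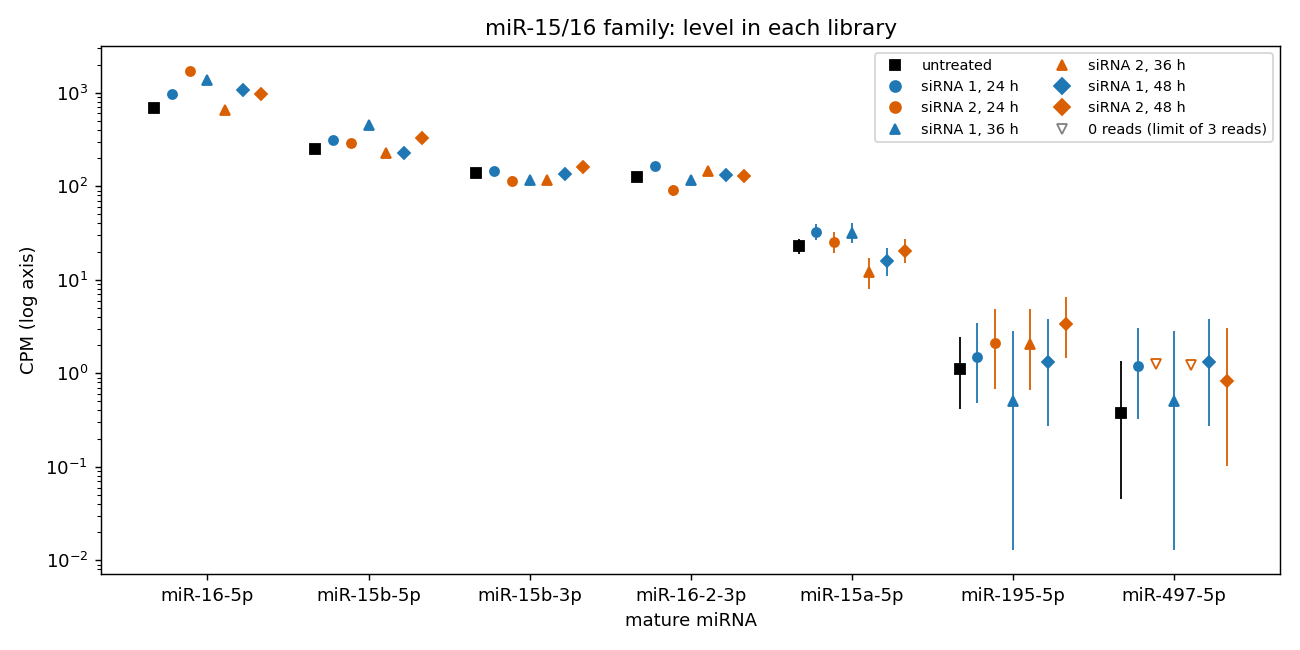
Level of the 7 members in each library, in CPM on a log axis. Bars are exact 95% binomial (Clopper-Pearson) intervals of the read count, and open triangles mark the 3-read limit where no read was counted. miR-16-5p spans 648 to 1699 CPM over the libraries, and miR-195-5p and miR-497-5p stay under 4 CPM.

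None of the 5 tested members passed an adjusted p of 0.05 in any of the 6 comparisons when all libraries were used. edgeR's quasi-likelihood test with Benjamini-Hochberg adjustment over all 458 miRNAs called 0% of them in each comparison (435 miRNAs between the siRNAs). At an unadjusted p under 0.05 it counted 23 miRNAs for all times against untreated, 11 at 24 h, 19 at 36 h, 53 at 48 h, 84 for 48 h against 24 h and 6 between the siRNAs, with 0 members among them. DESeq2 called 1, 1, 7, 12, 23 and 0 miRNAs in these comparisons and limma-voom 0 in each, none of them a member.

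For the mean of the 3 times against untreated, the log2 fold change of miR-16-5p was 0.69 ± 0.49 (SE, adjusted p = 0.899). That of miR-15b-5p was 0.28 ± 0.43 (adjusted p = 0.899). The other members lay nearer 0, miR-16-2-3p at 0.023 ± 0.38, miR-15a-5p at -0.025 ± 0.54 and miR-15b-3p at -0.079 ± 0.31, with adjusted p of 0.942 to 0.999. Of the 5, 3 were above 0, with a median of 0.023, and 212 of all 458 miRNAs were above 0, with a median of -0.046. No member was above untreated in 6 of 6 treated libraries, a pattern that 10.3% of the 458 miRNAs showed.

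miR-16-5p was the highest member at each single time. For miR-16-5p, 24 h gave a log2 fold change of 0.95 ± 0.55, 36 h one of 0.55 ± 0.54 and 48 h one of 0.57 ± 0.54, with adjusted p of 0.997, 0.946 and 0.637. miR-15b-5p was at 0.26 ± 0.48, 0.43 ± 0.49 and 0.15 ± 0.48. miR-15a-5p went from 0.34 ± 0.62 at 24 h to -0.074 ± 0.62 at 36 h and -0.34 ± 0.62 at 48 h. These 3 comparisons share the single untreated library, whose spread was not measured and was assumed to be that of the treated pairs. The passenger arms stayed between -0.25 and 0.093 at every time.

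Between 48 h and 24 h, a comparison without the untreated library, the lowest member was miR-15a-5p at -0.68 ± 0.52 (edgeR adjusted p = 0.483). miR-16-5p was at -0.38 ± 0.43 and miR-15b-5p at -0.11 ± 0.39, and the passenger arms were at 0.18 ± 0.29 (miR-15b-3p) and 0.036 ± 0.36 (miR-16-2-3p). Between siRNA 2 and siRNA 1, with time as a factor, the members lay between -0.42 ± 0.46 (miR-15a-5p) and 0.008 ± 0.28 (miR-15b-3p), each with an adjusted p of 0.992. Without the 36 h pair, miR-16-5p (0.44), miR-15b-5p (0.31) and miR-15a-5p (0.084) were above 0 in this comparison, with adjusted p of 0.998.

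Without the 36 h pair, miR-16-5p passed the threshold in 2 comparisons. That pair was left out for its spread, so the adjusted p-values without it tend to be too small. Without it edgeR tested 467 miRNAs, and miR-16-5p was higher in the remaining treated libraries at a log2 fold change of 0.81 ± 0.26 (adjusted p = 0.0185). It was higher at 24 h as well, at 1.01 ± 0.28 (adjusted p = 0.0125), and missed the threshold at 48 h, at 0.62 ± 0.27 (adjusted p = 0.0774). The other 4 members passed in neither direction. In the same fits 3.64% of all miRNAs were called higher and 7.07% lower over both times, 1.93% and 0.857% at 24 h, and 9.64% and 15.4% at 48 h. Leaving out the siRNA 2 library of 36 h alone was enough for miR-16-5p to pass, at 0.84 ± 0.26 (adjusted p = 0.0263), whereas without the siRNA 1 library of 36 h it was at 0.50 ± 0.27 (adjusted p = 0.251). Both calls also drew on the siRNA 2 library of 24 h, the highest for this miRNA. With that library left out beside the 36 h pair, miR-16-5p was at 0.57 over both times, 0.52 at 24 h and 0.61 at 48 h. That fit held 1 untreated library, 1 of 24 h and 2 of 48 h. Only the 48 h pair then gave a spread, so effect sizes alone are given.

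The call over both times without the 36 h pair also depended on the filter and on the scale. With the 458 miRNAs of the full data set kept and the 36 h pair left out, miR-16-5p was at 0.80 ± 0.27 with an adjusted p of 0.0679. With total miRNA counts in place of TMM it was at 0.94 ± 0.29 (adjusted p = 0.051). On the scale of all reads of a library the direction turned, to -0.31 ± 0.51 without the 36 h pair and to -0.45 ± 0.56 with all 7 libraries. On that scale the median of all tested miRNAs was -1.13 with all libraries, along with the lower share of miRNA reads after siRNA, so miR-16-5p still stood above the median. With all reads of a library as the denominator, miR-16-5p had 259 reads per 1000000 in the untreated library. The 24 h libraries had 232 and 260, the 36 h libraries 191 and 120, and the 48 h libraries 177 and 177. Thus 5 of the 6 treated values were below untreated on this scale.

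**Figure D2:**
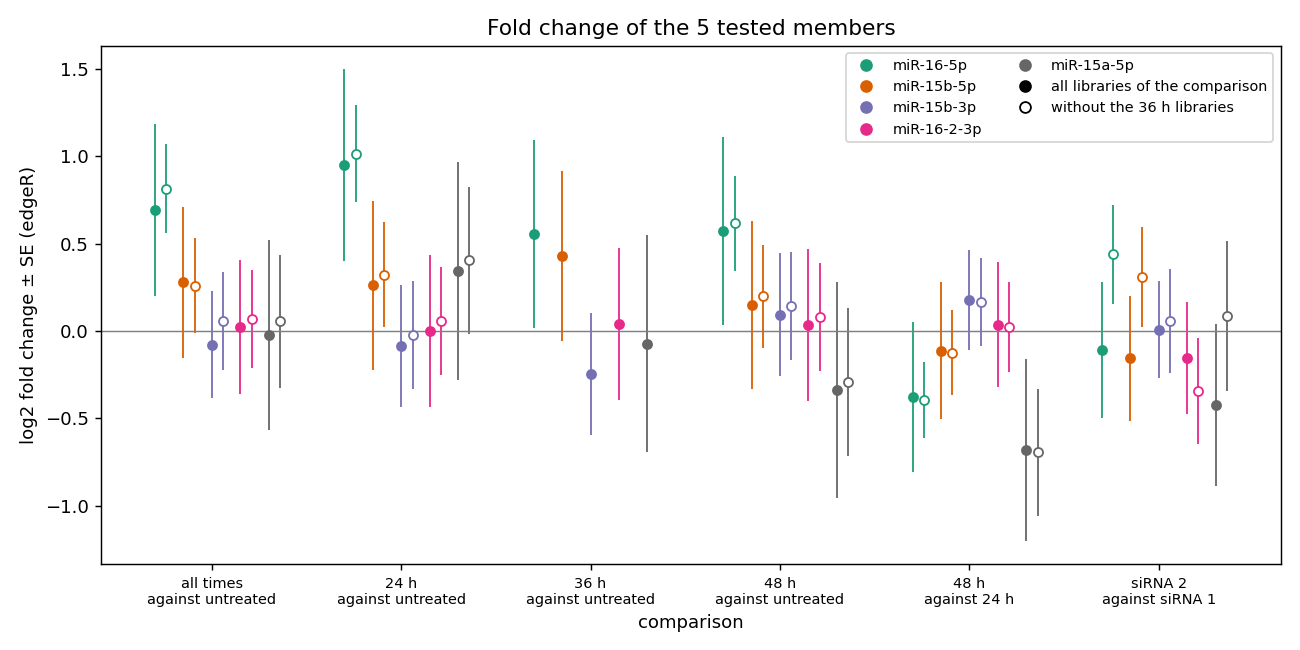
Log2 fold change of the 5 tested members with its SE from edgeR, by comparison; filled points use all libraries of the comparison and open points leave out the 36 h pair. miR-16-5p is the highest member in each comparison with untreated, and its error shrinks from 0.49 to 0.26 over all times without the 36 h pair.

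**Figure D3:**
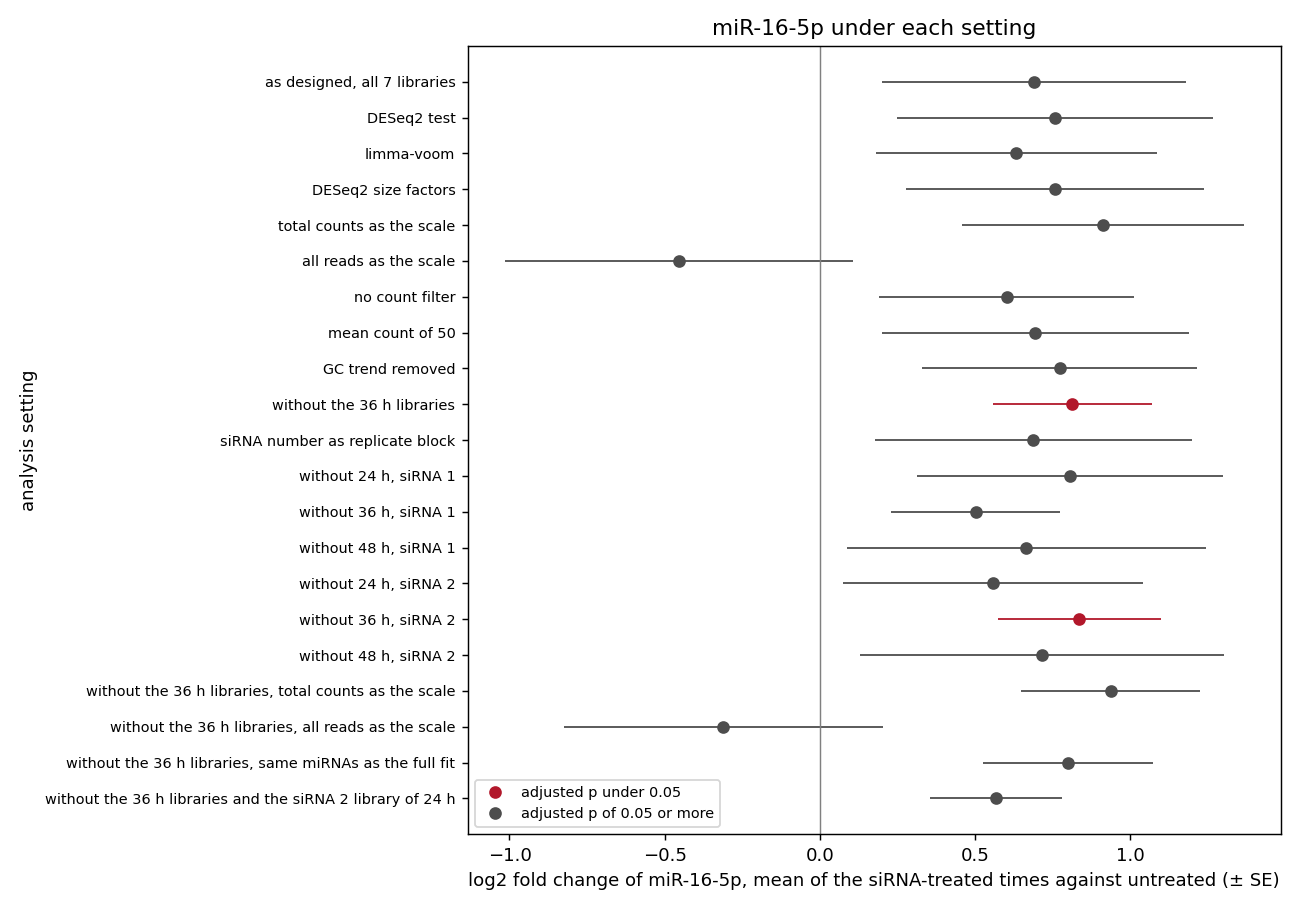
Log2 fold change of miR-16-5p (± SE), mean of the siRNA-treated times against untreated, under each analysis setting; red marks an adjusted p under 0.05. Values run from -0.45 with all reads as the scale to 0.94, and red appears only without both 36 h libraries or without the siRNA 2 library of 36 h.

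Blood-cell markers are given beside miR-16-5p because that miRNA is abundant in red blood cells. The 7 markers summed to 15.9 CPM in untreated cells and 16.3 to 80.1 CPM after siRNA, most of it miR-451a, an erythroid miRNA, at 11.7 CPM against 12.7 to 73.1 CPM. Their highest sum was in the siRNA 2 library of 36 h, where miR-16-5p was lowest. Without the 36 h pair miR-451a was called higher at 48 h, at a log2 fold change of 1.70 ± 0.46 (edgeR adjusted p = 0.00205). With all libraries it was not called (1.65 ± 0.74, edgeR adjusted p = 0.367). It was the only marker of these 7 with enough reads to be tested. miR-223-3p, a myeloid marker, had 0 reads in all libraries and miR-144-3p had 6 in total. Muscle markers reached 876 CPM in the siRNA 1 library of 36 h, nearly all of it miR-1-3p, against 23.1 CPM in untreated cells. The 6 fibroblast and endothelium markers summed to 458 CPM in untreated cells, to 442 and 505 CPM at 24 h and to 837 to 1068 CPM in the 4 later libraries. Of them, miR-143-3p was at 159 CPM in untreated cells, at 196 and 164 CPM at 24 h and at 387 to 746 CPM later. With all libraries edgeR did not call it at 48 h (1.39 ± 0.34, adjusted p = 0.367) and DESeq2 called it higher (1.46 ± 0.42, adjusted p = 0.0274). edgeR called it higher as well without the 36 h pair, at 1.44 ± 0.32 (adjusted p = 7.41e-05). The 3 neuron markers summed to 3931 CPM in untreated cells and 3438 to 7824 CPM after siRNA, with miR-124-3p at 0 reads. Nearly all of it was miR-128-3p, at 3905 CPM in untreated cells and 3408 to 7784 CPM after siRNA. The part of these markers in the level of any member was not tested.

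Shares of reads within a library do not depend on how libraries are scaled. Among the reads of miR-16-5p and miR-16-2-3p, miR-16-5p made up 84.5% in untreated cells (95% Clopper-Pearson interval 83.4% to 85.5%). It made up 85.6% and 94.9% at 24 h, 92.3% and 81.7% at 36 h and 89.1% and 88.4% at 48 h. The intervals of 4 treated libraries lay above the untreated interval, and those of the siRNA 1 library of 24 h and the siRNA 2 library of 36 h overlapped it. In reads, miR-16-5p outnumbered miR-16-2-3p 5.44-fold in untreated cells and 4.46-fold to 18.7-fold after siRNA. The treated mean share was 88.7 ± 4.70% (SD, n = 6). That SD mixes times and siRNAs, and the untreated share lay within 1 SD of the mean. This share mixes the clusters, since miR-16-5p also comes from chromosome 13.

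The arms of MIR15B come from 1 hairpin. In it the guide strand miR-15b-5p made up 64.5% of reads in untreated cells (62.4% to 66.6%), 68.3% and 71.6% at 24 h, 79.6% and 65.9% at 36 h and 62.9% and 67.3% at 48 h. The siRNA 1 library of 36 h stood highest, and the treated mean was 69.3 ± 5.81% (SD, n = 6). Between the 2 passenger arms of the cluster, miR-16-2-3p made up 47.9% of reads in untreated cells and 44.3% to 55.3% after siRNA, so both were read about equally.

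Chromosome 13 products made up lower shares beside their chromosome 3 counterparts in most later libraries, a description without a test. miR-15a-5p made up 8.37% of miR-15a-5p and miR-15b-5p reads in untreated cells, 9.37% and 8.14% at 24 h, 6.62% and 5.01% at 36 h and 6.50% and 5.83% at 48 h. The 4 libraries of 36 h and 48 h had lower shares than the other 3, and their 95% intervals overlapped that of the untreated library. The passenger arm miR-16-1-3p marks the chromosome 13 hairpin of miR-16.
hsa-miR-16-1-3p: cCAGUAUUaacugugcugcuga
Next to miR-16-2-3p, printed above, it differs at 12 of 22 bases and has another seed. It had 30 reads in the untreated library, 27 and 19 at 24 h, 14 and 2 at 36 h and 5 and 3 at 48 h. Its share of the reads of both miR-16 passenger arms was 4.22% in untreated cells, 4.68% and 8.05% at 24 h, 5.79% and 0.565% at 36 h and 1.62% and 0.971% at 48 h. Both 48 h shares and the siRNA 2 share of 36 h were below the other 4 libraries.

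**Figure D4:**
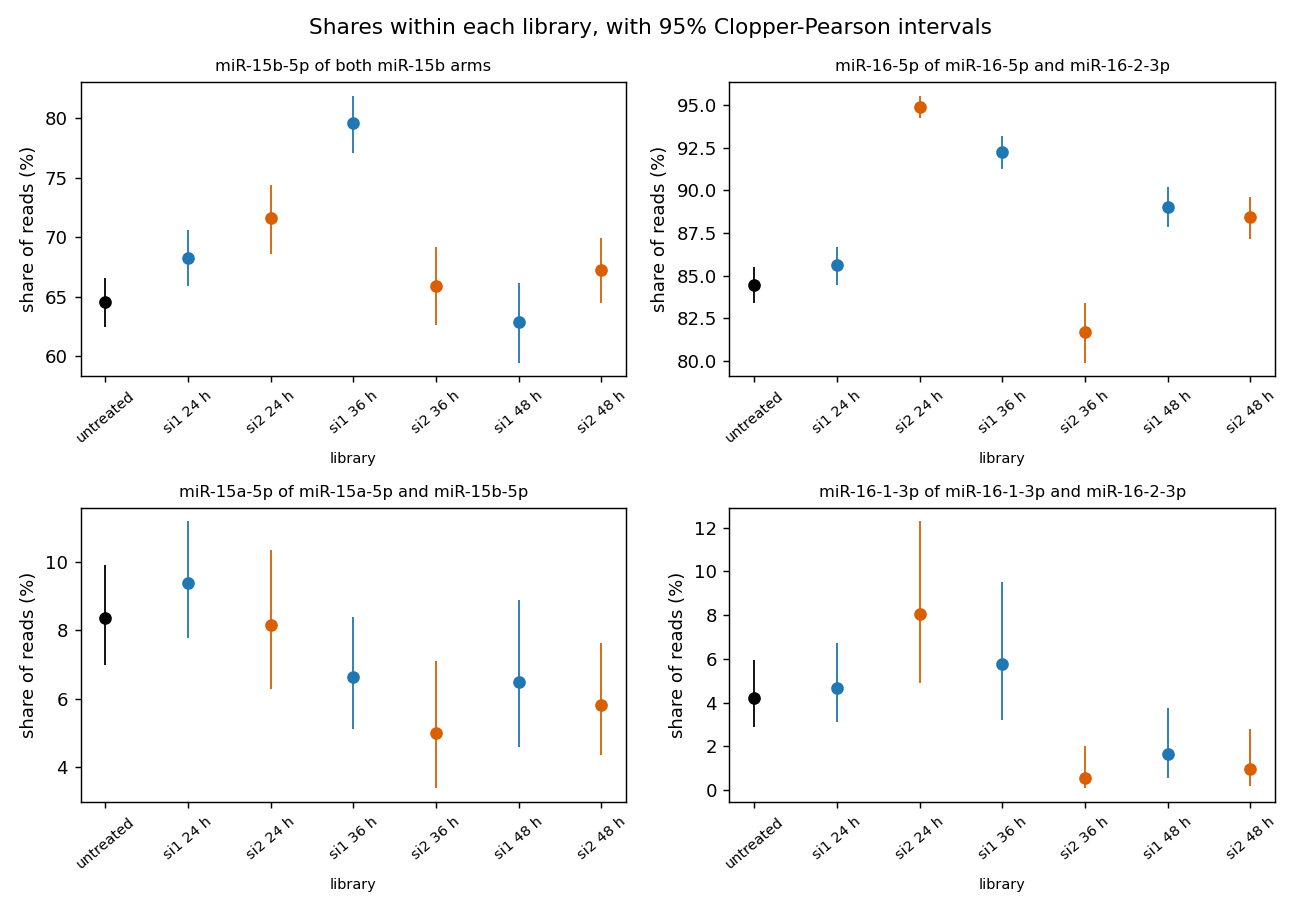
Shares of reads within each library, in percent with 95% Clopper-Pearson intervals (black untreated, blue siRNA 1, orange siRNA 2; si1 and si2 stand for the siRNAs; axes do not start at 0). miR-16-5p is at 94.9% in the siRNA 2 library of 24 h against 84.5% untreated, and miR-16-1-3p is under 2% in 3 of the later libraries.

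Further miRNAs were set beside the members in a pair of groups: 7 miRNAs with the same or nearly the same seed or from the other arms of these hairpins, and 2 whose first 7 bases equal the family's seed, which shifts it by 1 base. Examples are shown for comparison with the members.
hsa-miR-424-5p: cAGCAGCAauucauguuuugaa
hsa-miR-103a-3p: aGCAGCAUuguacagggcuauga
miR-424-5p, which is encoded on the X chromosome and restrains the cell cycle like miR-16, was at 13.2 CPM in untreated cells, 19.2 and 15.1 CPM at 24 h, 18.7 and 1.65 CPM at 36 h and 1.75 and 3.34 CPM at 48 h. miR-103a-3p, a miRNA linked to insulin sensitivity, was far more abundant, at 8244 CPM in untreated cells and 3603 to 10126 CPM after siRNA. With all libraries, edgeR called 0 of the 4 tested miRNAs of the first group (3 between the siRNAs) and 0 of the 2 of the second, as did DESeq2 and limma-voom. At an unadjusted p under 0.05 in edgeR, 3 and 1 of them counted for 48 h against 24 h and 0 in the other comparisons.

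Without the 36 h pair, 2 of the 4 same-seed or other-arm miRNAs fell between 24 h and 48 h, beside 17.8% of all 467 miRNAs that fell and 10.9% that rose. These were miR-424-5p (log2 fold change -2.74 ± 0.55, edgeR adjusted p = 6.83e-06) and miR-16-1-3p (-2.21 ± 0.65, adjusted p = 0.00359). Their 48 h counts were low, at 4 and 8 reads for miR-424-5p and 5 and 3 for miR-16-1-3p. At 24 h miR-424-5p had 65 and 36 reads and miR-16-1-3p 27 and 19. miR-195-3p was at 1.57 ± 0.65 (adjusted p = 0.0524) and miR-503-5p at -0.53 ± 0.29 (adjusted p = 0.165). In the second group miR-103a-3p fell, at -1.10 ± 0.21 (adjusted p = 1.65e-06), and miR-107 was at -0.56 ± 0.25 (adjusted p = 0.0775). In that comparison miR-15a-5p, at -0.70 ± 0.36 (adjusted p = 0.132), and miR-16-5p, at -0.40 ± 0.22 (adjusted p = 0.155), did not pass. With the siRNA 2 library of 24 h left out as well, which left 1 library at 24 h, miR-15a-5p was at -0.84. With all libraries the same contrast gave miR-424-5p -2.73 ± 1.02 (adjusted p = 0.25) and miR-16-1-3p -2.19 ± 0.92 (adjusted p = 0.265).

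Among 18 other miRNAs known to restrain the cell cycle (the let-7, miR-34, miR-26 and miR-29 families), 16 were tested. With all libraries edgeR and limma-voom called 0 of them, and DESeq2 called 1 lower for 48 h against 24 h. At an unadjusted p under 0.05, edgeR counted 4 for 48 h against 24 h, 3 at 48 h and 0 in the other comparisons. Without the 36 h pair, edgeR called 6 of 16 lower at 48 h than at 24 h and 0 higher, beside 17.8% and 10.9% of all 467 miRNAs. The median log2 fold change was -0.51 for the 16 and -0.012 for all, and 5 of the 16 lay above 0. The steepest fall was that of miR-29b-3p, at -2.48 ± 0.25 (edgeR adjusted p = 4.46e-21). edgeR shares the spread over miRNAs, so this error does not measure the gap between the 24 h libraries of miR-29b-3p. Its level was 387 CPM in untreated cells, 409 CPM with siRNA 1 and 1277 CPM with siRNA 2 at 24 h, 571 and 76.4 CPM at 36 h, then 159 and 148 CPM at 48 h. The rise over untreated called at 24 h without the 36 h pair, 1.19 ± 0.30 (adjusted p = 0.00421), rested on the siRNA 2 library. Without that library too, which left 1 library at 24 h, it was 0.12, and the change from 24 h to 48 h was -1.41. With all libraries miR-29b-3p was at 1.12 ± 1.13 at 24 h (adjusted p = 0.997) and at -2.46 ± 0.93 for 48 h against 24 h (adjusted p = 0.25). let-7f-5p fell by 0.94 on the log2 scale, let-7g-5p by 0.75 and let-7i-5p by 0.67. The median of the 5 tested members was -0.13.

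The members did not move as a unit over the 7 libraries. Pearson's r of log2 CPM was 0.77 between the guide strands miR-15a-5p and miR-15b-5p, and 0.54 between miR-16-5p and each of them. Between the passenger arms miR-15b-3p and miR-16-2-3p it was 0.50. It was -0.72 between miR-16-5p and miR-16-2-3p and -0.023 between the arms of miR-15b. Among the 271 other miRNAs with a mean of at least 50 reads, those most like a member were miR-30b-5p for miR-15a-5p (r = 0.985), miR-425-3p for miR-15b-5p (0.911) and miR-421 for miR-16-5p (0.924). For the passenger arms they were miR-10a-3p for miR-15b-3p (0.879) and miR-224-5p for miR-16-2-3p (0.944). These values describe 7 libraries that share the treatment, the time and the split along the first component, and carry no test.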

How the data were processed

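The deposited files, 1 per library, hold raw read counts per mature miRNA made by the authors, with 5 summary lines. The aligner, counter, genome build and treatment of reads with several origins: not given in the sources used. Per the labels' protocols, total RNA from a column kit went into a ligation-based small RNA kit; ligation efficiency differs between sequences and limits comparisons between miRNAs. Summary lines (56.9% to 86.6% of reads as no feature) were left out of library sizes and tests.

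edgeR 4.0.16 (R 4.3.3) tested every miRNA whose mean count reached 10: TMM scaling, quasi-likelihood F-tests on group (untreated, 24, 36, 48 h), Benjamini-Hochberg adjustment over all tested miRNAs, threshold 0.05. The siRNAs were compared in the 6 treated libraries with time as a factor. These tests share the spread over all tested miRNAs, so an SE can be smaller than the gap between a miRNA's own libraries. DESeq2 1.42.0, limma 3.58.1 (voom), other scales, filters, a GC correction and left-out libraries were alternatives; leaving out the 36 h pair with another scale or filter, or with the siRNA 2 library of 24 h, was added after seeing the data. The fits were tested on simulated counts. Reads per library and exact intervals give the counting error only, since reads carried no molecular identifiers.

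The rule for named miRNAs took all 7 members, lists of related miRNAs, and the most correlated miRNAs. Members and lists were chosen with earlier results of these data known. Mature sequences were matched by name to RefSeq for all 7 members; host transcripts are GENCODE's.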

Additional observations from a re-analysis of the deposited data

How the results depend on the processing

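With 1 untreated library and 2 per time, fold changes near 0 changed sign easily. None of the values that follow passed the threshold unless this is said or the calls of a fit are left out. The number of members called was 0 in each comparison with all libraries, and became 1 (miR-16-5p) over all times and at 24 h without the 36 h pair. It was also 1 at 48 h without that pair on the scale of total counts (miR-16-5p, 0.93, adjusted p = 0.0302) and on that of all reads (miR-15a-5p, -1.45, adjusted p = 0.0319). The median of all tested miRNAs was 0.30 in the former fit and -1.17 in the latter, so both values include a shift of the whole scale. Leaving out 1 library gave 0 to 1 members called over all times and at 24 h, where the 1 was miR-16-5p without the siRNA 2 library of 36 h, at 0.84 and 0.94. The causes of these changes were not tested. For miR-16-5p over all times, the log2 fold change with all 7 libraries was above 0 under each alternative other than the scale of all reads. With the siRNA number as replicate block it was 0.69 (adjusted p = 0.953); the libraries share only this number (correlations of deviations -0.25 to 0.096), and the block changed no call of a member.

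Signs turned as follows, in log2 fold change. With DESeq2 size factors in edgeR, miR-15a-5p was 0.042 over all times and miR-16-2-3p 0.0604 at 24 h. The DESeq2 test gave 0.042 and 0.061 for the same pair. With the GC trend removed, miR-15a-5p was 0.12 and miR-15b-3p 0.18 over all times, 0.073 and 0.078 at 36 h. Under that setting miR-15b-5p was 0.18 for 48 h against 24 h and miR-16-2-3p 0.0303 between the siRNAs. On total counts, where the median over all tested miRNAs reached 0.37 (48 h against 24 h), miR-15a-5p was 0.20 over all times, 0.23 at 36 h and 0.0200 at 48 h. On the same scale miR-15b-3p was 0.16 over all times and 0.094 at 36 h, miR-16-2-3p 0.025 at 24 h and miR-15b-5p 0.23 for 48 h against 24 h. With no count filter, miR-16-2-3p was -0.063 over all times, -0.081 at 36 h and -0.053 at 48 h, and miR-15b-3p -0.011 between the siRNAs. With a mean of 50 reads, miR-16-2-3p was 0.018 at 24 h.

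On the scale of all reads, miR-16-5p was -0.45 over all times and -0.072, -0.74 and -0.55 at 24, 36 and 48 h. miR-15b-5p was -0.82, -0.65, -0.86 and -0.96 in the same order. miR-16-2-3p was -1.03 over all times, -1.15 at 36 h, -1.08 at 48 h and -0.24 for 48 h against 24 h. miR-15b-3p was -1.02 at 48 h, -0.041 for 48 h against 24 h and -0.045 between the siRNAs, and miR-15a-5p was -0.55 at 24 h.

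Without the 36 h pair, miR-15a-5p was 0.055 and miR-15b-3p 0.059 over all times, and miR-16-2-3p 0.058 at 24 h. Between the siRNAs, miR-15a-5p was then 0.084, miR-15b-5p 0.31 and miR-16-5p 0.44. With the 458 miRNAs of the full set these values were 0.038, 0.041, 0.048, 0.083, 0.31 and 0.44. On total counts without the pair, miR-15a-5p was 0.19 over all times and 0.0199 at 48 h, miR-15b-3p 0.20 over all times and -0.0497 between the siRNAs, and miR-16-2-3p 0.028 at 24 h. There miR-15b-5p was 0.23 for 48 h against 24 h and 0.20 between the siRNAs, and miR-16-5p 0.33 between the siRNAs. On all reads without the pair, miR-15b-5p was -0.81 over all times, -0.65 at 24 h and -0.96 at 48 h. miR-16-5p was -0.31, -0.072 and -0.55 there, and 0.083 between the siRNAs. miR-16-2-3p was -0.97 over all times, -1.08 at 48 h and -0.24 for 48 h against 24 h. miR-15b-3p was -1.02 at 48 h, -0.041 for 48 h against 24 h and -0.30 between the siRNAs, and miR-15a-5p was -0.55 at 24 h. Without the pair and the siRNA 2 library of 24 h, miR-16-5p was 0.61 at 48 h and miR-15a-5p -0.84 for 48 h against 24 h. That fit left 1 library at 24 h, so its calls are left out. There miR-15a-5p was 0.12 and miR-15b-3p 0.13 over all times, miR-15b-3p 0.12 and miR-16-2-3p 0.40 at 24 h, and miR-16-5p 0.088 and miR-16-2-3p -0.32 for 48 h against 24 h.

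Leaving out 1 library at a time gave these ranges. Over all times, miR-15a-5p ran from -0.29 to 0.16, miR-15b-3p from -0.14 to 0.0012 and miR-16-2-3p from -0.14 to 0.17. At 24 h, miR-15b-3p ran from -0.27 to 0.069 and miR-16-2-3p from -0.48 to 0.34. At 36 h, miR-15a-5p ran from -0.90 to 0.47, miR-15b-5p from -0.11 to 0.84, miR-16-5p from -0.058 to 0.995 and miR-16-2-3p from -0.14 to 0.23. At 48 h, miR-15b-5p ran from -0.15 to 0.39 and miR-15b-3p from -0.045 to 0.22. For 48 h against 24 h, miR-15b-5p ran from -0.41 to 0.13, miR-16-5p from -0.73 to 0.14 and miR-16-2-3p from -0.27 to 0.51. Between the siRNAs, miR-15a-5p ran from -0.85 to 0.059, miR-15b-5p from -0.55 to 0.28, miR-15b-3p from -0.16 to 0.20, miR-16-5p from -0.59 to 0.41 and miR-16-2-3p from -0.40 to 0.19. A time left with 1 library was assumed to vary like the other times. Depth limits miR-195-5p and miR-497-5p, which had at most 8 reads in a library.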
